A study of Homo sapiens with 4 samples.

Results

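The DEAD and DEAH box helicase genes were taken as all protein-coding genes of GENCODE 44 whose symbol is DDX or DHX followed by a number. With 1 gene left out, 53 of 20046 protein-coding genes met this rule, which reads the symbol and no measured value. The members were still chosen with earlier results of these data known. A polyadenylation site cluster (PAC) is a short stretch of the genome in which the 3' ends of polyadenylated transcripts pile up. At least 1 PAC on the gene's own strand lay inside the span of 46 helicase genes, against 10841 of all protein-coding genes. The other 7 had none in any library, and they included DDX4, DDX25, DDX43 and DDX53, which are known from the germ line, as well as DHX57 and DHX58.

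The libraries were made by PAS-seq, which reads transcripts at their 3' ends, from the esophageal cancer cell lines KYSE30 and TE-1. Each line gave 1 library from cells treated with L-lactate and 1 from control cells given PBS, so that 4 libraries were available and no condition was repeated within a line. The cell line field of the controls names KYSE32 and TE-3, whereas the sample titles place them with KYSE30 and TE-1. The titles were followed here. TPM denotes the tags of a feature scaled to a fixed total for each library, and a gene's level is the sum over its PACs, without correction for length. Because a tag marks a 3' end, this sum does not grow with transcript length. In bulk libraries, fewer expressing cells and less RNA per cell cannot be told apart.

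The depth was between 7174991 and 10393799 tags per library, and the helicase genes held between 53 and 55 PACs in each. Their summed TPM was 3444 and 3311 in KYSE30 and 4537 and 4222 in TE-1, where the value after L-lactate is given before that of the control here and below. Of 8 epithelial markers examined, EPCAM was at 635 and 563 TPM in KYSE30 and at 36.4 and 30.7 TPM in TE-1 (L-lactate and control), and KRT8 was high in all 4 libraries. SOX2 and KRT6A were listed in the KYSE30 libraries only, with SOX2 at 220 and 168 TPM, so that both libraries titled for a line resembled each other in these markers and differed from the other line. KRT5, KRT14 and TP63, which define squamous basal cells, were listed at 0 in every library, as were the leukocyte and endothelial markers PTPRC and PECAM1. A listed 0 leaves out any PAC past the annotated end of the gene, so it does not show that the gene was silent. The fibroblast collagen gene COL1A1 was listed at 0 in KYSE30 and at 4.84 and 5.39 TPM in TE-1, whereas COL1A2 was listed at 0 in all 4 libraries. The part of COL1A1 in the differences between the lines was not tested.

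DEAD and DEAH box proteins are ATP-driven enzymes that unwind or remodel RNA and RNA-protein complexes. Members act at almost every step of the life of an RNA, from transcription and splicing through export and translation to decay, and many are needed to build ribosomes in the nucleolus. Their levels are of interest in cancer cells because growth draws heavily on ribosome production and RNA processing.

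The cleavage sites of 6 genes carry most of the results on single PACs. The 30 bases that end at the dominant site of each PAC are shown 5′ to 3′ on the strand of the gene, read from the GRCh38 reference. Capitals mark the poly(A) signal AATAAA, or ATTAAA where AATAAA is absent from these bases, and a run without capitals holds neither.
DDX5 proximal PAC, chr17:64499621-64499650, minus strand: gccttccAATAAAaaatatttgaagactga
DDX5 distal PAC, chr17:64498254-64498283, minus strand: cttaactAATAAAtgtgatttttctcccca
DDX18 proximal PAC, chr2:117831022-117831051, plus strand: cattttaatataattctttttgtacctttc
DDX18 distal PAC, chr2:117832342-117832371, plus strand: attttcctgtgtcATTAAAtaattacttca
DDX31 main PAC, chr9:132594290-132594319, minus strand: tctgggtcaaaaaatacgaatgtgttctca
DDX31 PAC of the short transcript DDX31-204, chr9:132658083-132658112, minus strand: ctcAATAAAggtgatttggttttgcagcta
DDX3X proximal PAC, chrX:41348107-41348136, plus strand: AATAAAtttactgaacttgggctaaaatca
DDX3X distal PAC, chrX:41350175-41350204, plus strand: gattttattaaAATAAAaagttgaactgca
DDX21 single PAC, chr10:68985039-68985068, plus strand: gtataccatAATAAAgatagtaatacttga
DHX40 proximal PAC, chr17:59607531-59607560, plus strand: gcattgaagcATTAAAaattatttttctta
DHX40 PAC past the annotated end, chr17:59608323-59608352, plus strand: attagtgtcATTAAAattcaaaagacagta

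The proximal PAC of DDX18 and the main PAC of DDX31 have neither signal here, whereas the distal PAC of DDX18 has ATTAAA. Both PACs of DDX5 carry AATAAA. Over the 53 helicase PACs in 3' UTRs, AATAAA was found within 50 bases of the site in 66.0%, against 66.7% of 13646 PACs in 3' UTRs of all protein-coding genes. ATTAAA without AATAAA was found in 13.2% against 16.8%, and neither in 20.8% against 16.5%. TGTA, the core of the motif bound by the cleavage factor CFIm, lay in the 100 bases before the site in 58.5% against 58.0%. A single dominant base was used in every library that lists the PAC for 94.3% of the helicase PACs, against 87.5% of all.

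The level of the helicase genes spanned more than 2 orders of magnitude. DDX5, a coactivator that also takes part in splicing and microRNA processing, was the highest, with 769 and 742 TPM in KYSE30 and 827 and 775 TPM in TE-1. Its close paralog DDX17 followed, with 337, 330, 394 and 351 TPM in the same order. The splicing and export factor DDX39B gave 268, 239, 234 and 210 TPM, all from 1 PAC that also lies in the readthrough gene ATP6V1G2-DDX39B. Relative to their size, the 4 values of DDX5 lay close together, those of DDX17 were further apart and those of DDX39B further still. DDX6, which represses translation and promotes decapping, gave 180, 192, 301 and 219 TPM. At the other end DDX60L, an interferon-induced gene, was at 7.67, 6.06, 3.31 and 3.46 TPM.

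The first comparison asked how far the lines differ. A gene was tested if its summed TPM was at least 5 in at least 2 libraries, which 43 helicase genes passed among 9640 genes. DDX10, DDX19A and DDX59 had a PAC but did not pass. In the limma fit of log2(TPM + 1) with line and treatment as terms, 31 of 43 helicase genes differed between the lines at a Benjamini-Hochberg adjusted p of at most 0.05, a share of 72.1% against 73.7 percent of all genes tested. The share is thus close to the background, but the directions were unequal. Higher levels in TE-1 were called for 23 genes (53.5%), against a background of 36.6%, and higher levels in KYSE30 for 8 genes (18.6%), against 37.0%. The median difference, KYSE30 minus TE-1, was -0.41 on the log2(TPM + 1) scale for the helicase genes and 0.00 for all genes tested. Large differences were few, with 5 of 43 called and past 2-fold (11.6%) against 3379 of 9640 genes (35.1%).

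Among the genes of ribosome biogenesis, 12 of the 15 tested were higher in TE-1 and none in KYSE30, beside 36.6% and 37.0% of all genes, with a median difference of -0.73. The roles were chosen with earlier results of these data known, so these counts describe the groups only. DDX21, a nucleolar helicase of ribosomal RNA transcription and processing, was at 94.1 and 78.1 TPM in KYSE30 (L-lactate and control) and at 379 and 351 TPM in TE-1. Both TE-1 values lay far above both KYSE30 values, with a log2 difference of -2.08 ± 0.07 (SE, adjusted p = 8.86e-08 in limma). All its tags came from the single PAC shown above. DDX24 gave 55.3 and 49.96 TPM in KYSE30 and 108 and 102 TPM in TE-1, a difference of -0.99 ± 0.09. DHX33, which promotes ribosomal RNA transcription, gave 52.5 and 39.2 against 95.3 and 88.0 TPM (-0.997 ± 0.103), at a PAC that also lies in the span of C1QBP. DDX50, the paralog of DDX21, gave 42.4 and 47.4 TPM in KYSE30 against 79.5 and 88.6 TPM in TE-1, a difference of -0.89 ± 0.09. The genes of this group that were not called were DDX27, DDX47 and DDX49, with differences of -0.15 ± 0.17, 0.11 ± 1.38 and -0.26 ± 0.10.

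The 5 genes of translation and mRNA decay were split, with 3 higher in TE-1 and 1 in KYSE30, beside 36.6% and 37.0% of all genes. DDX3X, a helicase of translation initiation, was at 142 and 149 TPM in KYSE30 and at 332 and 324 TPM in TE-1, a difference of -1.17 ± 0.07 (adjusted p = 1.22e-06 in limma). The lines did not overlap, and the treatments within each line lay close together. DHX36, which resolves G-quadruplexes, gave 29.97 and 23.0 against 53.0 and 49.8 TPM (-0.94 ± 0.12), and DDX6 was also higher in TE-1 (-0.47 ± 0.12). DHX34, a factor of nonsense-mediated decay, was higher in KYSE30 (0.55 ± 0.20), and DHX29 was not called (-0.02 ± 0.17). Both mitochondrial helicases were higher in TE-1, as were 36.6% of all genes. DHX30 gave 32.9 and 30.03 against 64.7 and 65.2 TPM (-1.02 ± 0.10), and DDX28 gave 10.3 and 12.4 against 18.9 and 19.5 TPM (-0.72 ± 0.16).

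Of the 9 spliceosomal helicases, 4 were higher in TE-1, 2 in KYSE30 and 3 were not called, beside 36.6% and 37.0% of all genes, so that the share higher in TE-1 was near the background. DDX41, also studied as a DNA sensor, was at 66.3 and 68.1 TPM in KYSE30 and at 37.3 and 35.6 TPM in TE-1 (0.87 ± 0.10). DDX42, a component of the U2 particle, gave 130 and 120 against 79.2 and 85.7 TPM (0.60 ± 0.09). DHX15, which disassembles spliceosomes, was higher in TE-1 (-0.54 ± 0.08), as were DDX23, DDX46 and DHX35. DHX8, DHX16 and DHX38 were not called.

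The remaining genes that were higher in KYSE30 were few. DHX32 gave 122 and 116 TPM in KYSE30 against 62.0 and 51.0 TPM in TE-1, a difference of 1.07 ± 0.09 (adjusted p = 1.02e-05 in limma). DHX40 gave 18.3 and 19.7 against 8.74 and 6.06 TPM (1.27 ± 0.20) at its proximal PAC, the only one inside its annotated span. Its second PAC, 7 bases past the annotated end, gave 12.5 and 16.2 against 10.6 and 10.1 TPM, so that the lines lay closer there. DDX60L was higher in KYSE30 (0.84 ± 0.21), and its neighbour DDX60 had a difference of 0.41 ± 0.19 and was not called. In mRNA export, DDX19B (0.73 ± 0.13) and DDX39B (0.19 ± 0.06) were higher in KYSE30 and DDX39A (-0.62 ± 0.08) in TE-1. Both PACs of DDX19B also lie in the span of ENSG00000260537. DDX5, DDX17 and DHX9, which act in transcription and microRNA processing, were not called, whereas DDX20 of the SMN complex was higher in TE-1 (-0.58 ± 0.14).

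**Figure D1:**
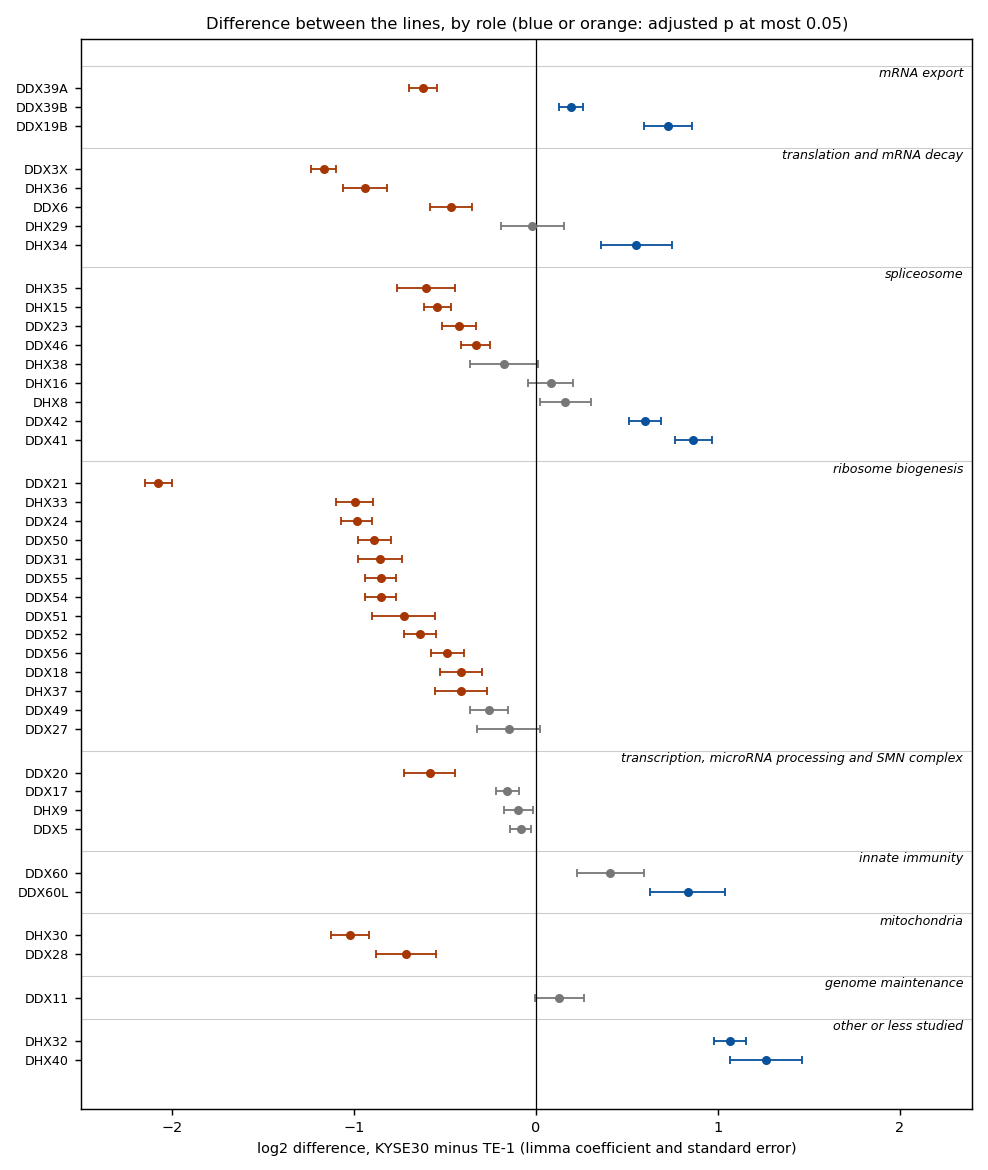
Difference between the lines for the tested helicase genes, grouped by role, as the limma coefficient of log2(TPM + 1) for KYSE30 minus TE-1 with its standard error. Blue points were called higher in KYSE30, orange points higher in TE-1 and grey points were not called, and the 12 called genes of ribosome biogenesis all lie left of 0. DDX47 (0.11 ± 1.38) is not drawn.

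A list of 36 genes, made up of other helicases and known partners, was fitted in the same way. It held EIF4A2 and further helicases whose symbols fall outside the rule. Subunits of the THO complex, the exon junction complex and the spliceosome were also on it. Of the 32 tested, 8 were higher in KYSE30, 13 in TE-1 and 11 were not called, beside 37.0% and 36.6% of all genes, with a median difference of -0.08. THOC5 of the THO complex gave 146 and 137 TPM in KYSE30 against 63.9 and 71.8 TPM in TE-1 (1.05 ± 0.09), whereas GPKOW, a partner of a spliceosomal helicase, gave 8.92 and 7.81 against 27.0 and 29.3 TPM (-1.64 ± 0.17).

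The second comparison asked which helicase genes changed with L-lactate. Over both lines, limma called 0 of 43 in either direction at an adjusted p of at most 0.05, against a background of 0.0415% higher and 0.0311% lower among 9640 genes. The fit has 1 residual degree of freedom, and a missed threshold does not show that the levels were alike. At an unadjusted p under 0.05 there were 5 helicase genes (11.6%), against 9.19% of all genes. These were DDX21, DDX31, DDX39B, DHX9 and DHX33, and each had a positive coefficient, but the share is close to the background. The count was 2 with TMM scaling, 3 with the midpoint of the PAC or without the filter, 1 without a trend on level and 0 without the cell line term. The median coefficient was 0.07 for the helicase genes and 0.02 for all genes. Both lines gave a higher value with L-lactate for 17 helicase genes and a lower one for 10, and 16 had opposite signs. These joint counts were not taken over all genes. In each line alone 58.1% of the helicase genes had a ratio above 0 (25 above, 18 below), against 49.6% of all genes in KYSE30 and 54.9% in TE-1. The shares over all genes are lowered by ratios of exactly 0, which no tested helicase gene had. Of the 9640 genes, 4780 were above 0 and 4480 below in KYSE30, and 5288 and 3894 in TE-1.

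DDX31, a nucleolar helicase, ranked first by the smaller of its ratios in the 2 lines among the 30 genes with at least 20 TPM in every library. It gave 38.7 against 25.5 TPM in KYSE30 and 63.3 against 52.7 TPM in TE-1. The coefficient was 0.42 ± 0.12 (SE) with an adjusted p of 0.439 in limma. The values with L-lactate were the higher of each pair, but the difference between the lines was larger than that within either. Its main PAC gave 33.4 and 20.6 TPM in KYSE30, a ratio of 1.62 (95% counting interval 1.33 to 1.99), and 51.2 and 36.9 TPM in TE-1, a ratio of 1.39 (1.21 to 1.59). The PAC of the short transcript DDX31-204 gave 4.04 and 3.37 TPM in KYSE30 but 5.08 and 9.33 TPM in TE-1, a ratio of 0.544 (0.381 to 0.778) in the latter. Counting intervals cover the sampling of tags only, not the spread between cultures.

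The other positive coefficients chosen by the same rule were smaller. DHX9, a helicase of transcription and RNA structure, gave 113 against 102 TPM in KYSE30 and 129 against 103 TPM in TE-1, with a coefficient of 0.23 ± 0.08 (adjusted p = 0.491 in limma). DHX33 had 0.26 ± 0.10, DDX55 had 0.19 ± 0.09 and DDX39B had 0.16 ± 0.06. The lower values with L-lactate lay in DDX50 (-0.16 ± 0.09), DDX49 (-0.13 ± 0.11), DDX54 (-0.11 ± 0.09), DDX46 (-0.09 ± 0.08) and DDX56 (-0.05 ± 0.09). Of the genes of ribosome biogenesis, 8 coefficients were above 0 and 7 below, beside 55.3% above 0 over all genes tested. DDX6 had a log2 ratio of -0.09 in KYSE30 and 0.46 in TE-1, and this difference between lines was not tested.

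**Figure D2:**
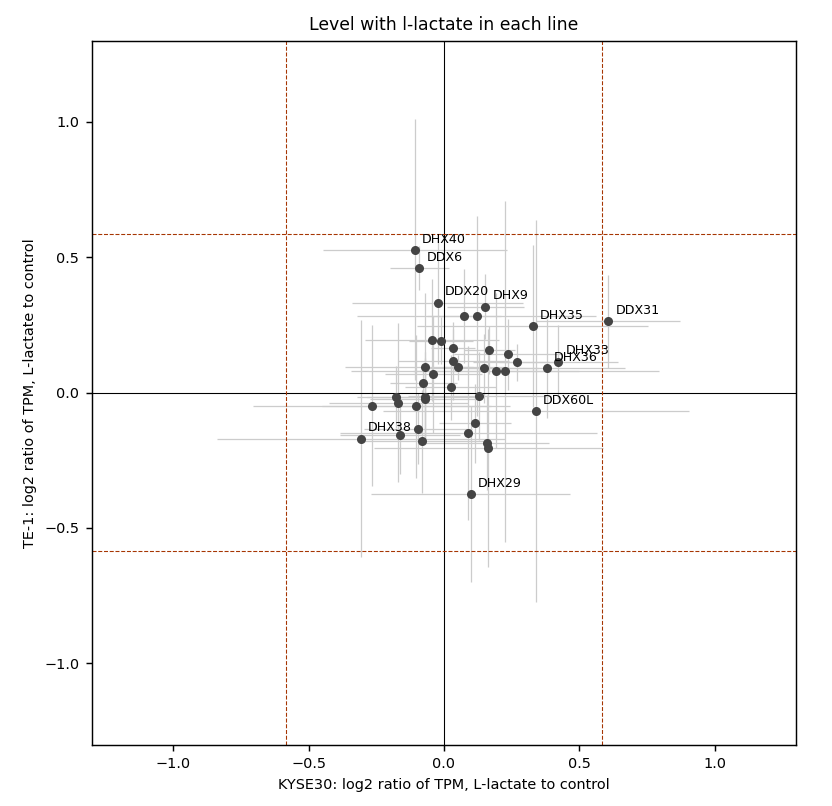
Log2 ratio of TPM, L-lactate to control, in KYSE30 (horizontal) and TE-1 (vertical) for the tested helicase genes, 1 point per gene with the 95% counting interval, and dashed lines at 1.5-fold. DDX31 is the only drawn gene past a dashed line, at a ratio of 1.52 in KYSE30 and 1.20 in TE-1, and DDX47, listed at 0 in 2 libraries, is not drawn.

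Within a line there is 1 library per condition and no test, so genes past 1.5-fold on the log2(TPM + 1) scale were counted. In KYSE30, DDX31 and DDX47 were higher with L-lactate and no helicase gene was lower, against backgrounds of 2.02% and 2.27%. DDX31 lay only just past this threshold, at a log2 ratio of 0.587, and fell short of it with TMM scaling or a pseudocount of 5. In TE-1 none was higher and DDX47 was lower, against 2.62% and 1.56%. DDX47, a nucleolar helicase, has 1 PAC whose dominant base moved by 5 bases between libraries and fell past the annotated end in the KYSE30 control and in TE-1 with L-lactate, where the gene is therefore listed at 0. The PAC itself gave 14.6 and 9.16 TPM in KYSE30 and 12.3 and 12.4 TPM in TE-1. The median log2 ratio was 0.05 in KYSE30 (all genes 0.00) and 0.07 in TE-1 (all genes 0.03).

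The third comparison concerned the choice of site. Most helicase genes had a single PAC. Of the 46, 36 had 1 PAC, 8 had 2 and 2 had 3 (DDX31 and DDX51), so that 21.7% had at least 2, against 35.0% of 10841 genes. Distal usage is the share of a gene's 3' UTR TPM at its most distal PAC, and it could be measured for 5 helicase genes of 1698 genes. None changed by at least 10 percentage points with L-lactate, where the background was 2.71% lengthened and 5.12% shortened in KYSE30 and 5.89% and 3.95% in TE-1.

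DDX5 used its distal PAC, 1367 bases beyond the proximal one, in KYSE30 for 10.9% of tags after L-lactate (Wilson 95% interval 10.2 to 11.8) and for 7.52% of control tags (6.85 to 8.24). In TE-1 the shares were 6.68% (6.12 to 7.29) and 4.23% (3.82 to 4.70). The share was higher with L-lactate in both lines and higher in KYSE30 under both treatments, and the intervals within each line did not overlap. The distal PAC gave 84.2 against 55.8 TPM in KYSE30, a ratio of 1.51 (1.33 to 1.71), and 55.3 against 32.8 TPM in TE-1, a ratio of 1.68 (1.47 to 1.94). The proximal PAC had ratios of 0.998 (0.960 to 1.04) and 1.04 (1.01 to 1.07). In a limma fit of the log2 odds of distal usage, chosen after the values were seen, the coefficient of L-lactate was 0.65 ± 0.17 (SE, adjusted p = 0.481 in limma over 1698 genes, of which 0.177% were called). The change in DDX5 therefore did not pass the test over all genes.

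Inside the annotated gene spans, DDX18, a nucleolar helicase, was the only helicase gene whose distal usage differed between the lines by at least 10 percentage points under both treatments. The background was 14.3% more distal in KYSE30 and 4.53% more distal in TE-1. Its share in KYSE30 was 18.8% and 18.9%, and in TE-1 it was 8.39% and 5.04%. Its distal PAC was above 5 TPM in KYSE30 only (8.22 and 7.41 TPM, against 4.37 and 2.98 TPM in TE-1). The gene was thus measured only through the line with the higher share, which favours a difference in this direction. The difference in log2 odds was 1.73 ± 0.28 (adjusted p = 0.0487 in limma, with 18.4% of all genes called). That fit was chosen after the values were seen and shares this limit. DDX31 went the other way, with 3.24% and 5.82% in KYSE30 and 11.0% and 12.2% in TE-1, but was not called (adjusted p = 0.0545 in limma). Its distal PAC held 9 and 11 tags in KYSE30, and its dominant base is listed there at 167% and 155% of the PAC's own total, so that these KYSE30 shares may be too low and the gap between the lines too wide. DDX3X ended almost always at its distal PAC, with 97.5%, 97.7%, 95.4% and 94.9%. DDX19B had 13.7%, 16.7%, 18.7% and 14.8%, with overlapping intervals. With the gene span extended by 24 bases, DHX40 could be measured too and gave 40.7% and 45.1% in KYSE30 and 54.9% and 62.5% in TE-1. It then passed the same rule as more distal in TE-1, with differences, KYSE30 minus TE-1, of -14.2 and -17.4 percentage points.

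PACs inside introns were rare. An intronic PAC of DDX55 was listed in TE-1 only, and 1 of DDX59 in KYSE30 with L-lactate only, at 3.07 TPM. Intronic PACs held 0.0890% (0.0588 to 0.135) of the helicase TPM in KYSE30 with L-lactate, 0 of 24587 tags in its control, which lists no cluster under 1.08 TPM, 0.0625% in TE-1 with L-lactate and 0.0843% in its control. The share over all protein-coding genes was between 5.91% and 5.99% under the same assignment, which also counts PACs of overlapping genes, and between 1.43% and 1.48% with each PAC given to 1 gene. The helicase shares were the same under both. More tags lay in exons of noncoding transcripts. In DHX30 such a PAC gave 10.7 and 11.4 TPM in KYSE30 and 15.6 and 18.3 TPM in TE-1, or 32.6% and 38.1% of the gene in KYSE30 and 24.1% and 28.0% in TE-1. The 3' UTR PAC of DHX30 gave 22.2 and 18.6 against 49.1 and 47.0 TPM, so that the lines lay further apart there. The only PAC of DDX27 and a minor PAC of DHX15 also lay in exons of noncoding transcripts.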

How the data were processed

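The PAS-seq libraries came from 2 cell lines, each exposed to L-lactate or PBS, with 1 library for each line and condition. The authors trimmed and aligned the reads to GRCh38 (build p14 in the submitters' processing notes), grouped 3' ends into clusters shared by all libraries, and deposited for each cluster its position, dominant site and level in TPM, tags scaled to the library total (an RPM unit, not corrected for length). The tables list clusters from 1.06 to 1.12 TPM upwards. Nearly all values were whole multiples of 1 tag (at least 99.99% within 0.00051 TPM), from which the total tags of each library were taken for the Wilson intervals. Intervals cover counting error only. As libraries were not repeated, p-values rest on the departure of the 2 lines from an additive fit, which may be technical.

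A PAC was given to every GENCODE 44 gene whose same-strand span holds its dominant site. Levels were compared with limma 3.58.1 (R 4.3.3, moderated test with a trend on level, 1 residual and 7.03 prior degrees of freedom) on log2(summed TPM + 1), fitted to all genes with at least 5 TPM in at least 2 libraries, with Benjamini-Hochberg adjustment. A fold change on this scale understates the change of low genes. Distal usage was taken for genes with at least 2 PACs in 3' UTRs above 5 TPM in any library and over 10 TPM in all. Annotation and sequences were handled with Python 3.11.15, pandas 2.3.3, SciPy 1.17.1 and pysam 0.24.0.

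On simulated data for the L-lactate comparison over 9640 genes, the fit recovered 92 of 100 genes changed by a log2 of 1.0 and 48 of 100 changed by 0.585, with 15 false calls among 9440. For distal usage in KYSE30, 199 of 200 genes changed by 20 percentage points were recovered, with 26 false calls among 1498. The spread between libraries was set in advance for the gene levels and not estimated from the data. The simulation of distal usage drew counting error only. These rates therefore hold for those settings and do not give the power of the real libraries.

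The genes named were the 6 with the highest mean, up to 5 with the largest shared rises and falls with L-lactate, up to 6 with the largest difference between lines in each direction, the largest differences in distal usage, intronic PACs above 5 TPM and the genes with the most PACs, and others were added by role. The roles, the list of other helicases and partners, and the members were chosen with earlier results of these data known. The cell type markers were chosen after the files were seen. The alternatives concerned the pseudocount, filter, scaling, span, thresholds and terms of the model. A gene of the same naming pattern is not reported here, and no value is given for a Y-linked one.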

Additional observations from a re-analysis of the deposited data

Results flagged for a closer look

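DDX47 moved in opposite directions in the lines, with a log2 ratio, L-lactate minus control, of 3.97 in KYSE30 and -3.75 in TE-1. The difference was not tested, and each value rests on a library in which the gene is listed at 0 because the dominant base of its PAC lay past the annotated end. The PAC itself was listed in all 4 libraries at 9.16 to 14.6 TPM.

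Several helicase genes had a PAC just past their annotated end, which their summed level leaves out. The highest TPM in any library was 12.8 for DDX19A (1 base past the end), 3.08 for DHX15 (2 bases), 11.9 for DHX36 (724 bases), 16.2 for DHX40 (7 bases) and 4.46 for DHX57 (4 bases). DHX57 is therefore without a PAC only under the span used.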

How the results depend on the processing

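None of the alternatives run brought a helicase gene past the threshold for L-lactate, and the count higher in TE-1, 23, was between 20 and 25 in the limma fits, 16 with the control libraries alone past 1.5-fold and 17 with the L-lactate libraries alone. The count higher in KYSE30, 8, was 5 with a summed TPM of at least 20 and 5 with the control libraries alone past 1.5-fold. In the limma fits, between 67.8% and 78.1% of all genes tested were called between the lines in either direction. The directions were not counted separately over all genes under these alternatives. The 1.5-fold counts within 1 treatment were not taken over all genes. A fit without 1 library has no residual degree of freedom and was not run. Without the cell line term (no replicate block) 0 helicase genes and 0 of all genes were called for L-lactate. Without the treatment term 7 helicase genes were higher in KYSE30 and 23 in TE-1, with 69.0% of all genes called in either direction. Calls for L-lactate over all genes, 7, became 72 with a pseudocount of 5, 20 with at least 20 TPM, 1 with the span extended by 24 or 1000 bases and 1 with the midpoint of the PAC. The cause was not tested.

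Counts within a line were small. For higher in KYSE30, 2, the count was 1 with a pseudocount of 5, with at least 20 TPM, with TMM scaling and at 2-fold, and 4 at the lowest fold threshold tried. In TE-1, lower was 0 with at least 20 TPM or a span extended by 24 or 1000 bases and 2 at that lowest threshold, where higher was 3. For distal usage between lines, TE-1 became 1 at 5 percentage points and 1 with the span extended by 24 bases (DHX40), and KYSE30 became 0 at 20 percentage points and 0 with PACs above 10 TPM. With PACs chosen within the line, 1 gene passed the rule as shortened in TE-1, DDX51 (62.7% against 75.9%). Its Wilson intervals overlapped (53.7 to 70.9 and 68.2 to 82.2), and its other qualifying PAC was above 5 TPM only with L-lactate (5.195 against 3.27 TPM). Of all 3 PACs of DDX51, the distal one held 55.6% against 59.1% in TE-1. With exons of noncoding transcripts as intron, the intronic share was 1.01%, 1.01%, 0.906% and 0.969%, and it was 0 in every library with PACs of at least 5 TPM. The settings with the span extended by 24 bases, without a trend and on the log2 odds were added after seeing the data. The planned count-based tests were not run, since the deposited values are normalized. TMM factors were computed from the deposited values.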
